A study of Mus musculus with 2 samples.

Results

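The mitochondrial ribosomal protein genes, whose products build the ribosome inside mitochondria, were described in 2 RNA-seq libraries of the mouse cell line G1E-ER4. A gene was taken as a member when its identifier mapped to a protein-coding mouse gene whose symbol starts with Mrpl or Mrps and a number. The rule itself used no measured value, but it was chosen with earlier results of these data known. This gave 77 genes, 48 named for the large and 29 for the small subunit, of 21474 protein-coding genes and 43346 Ensembl genes in the tables. The annotation names 78 such genes, and the remaining one, Mrpl33, was not analysed here.

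Both libraries belong to a single group. G1E is a line of erythroid progenitors that lack the transcription factor GATA1, and its subline G1E-ER4 carries GATA1 fused to the ligand-binding domain of the estrogen receptor. The labels describe immortalized male cells, postnatal, age 0 day, with Gata1 restored and with erythroid differentiation brought on by estradiol; they give no dose and no duration. The libraries are labelled biological replicates 1 and 2, but both name the same biosample, so their spread may be technical. With 1 group the design compares no conditions. What it allows is the level of each member, the spread of that level over 2 libraries, and the place of the members among other genes.

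The mitochondrial ribosome translates the few proteins that the mitochondrial genome encodes, all of them membrane subunits of oxidative phosphorylation. Its ribosomal RNAs are made inside the organelle, whereas its proteins are encoded in the nucleus, made by cytosolic ribosomes and imported. Many of these proteins have a bacterial counterpart and share its number, and the others were gained in mitochondria. In erythroid cells mitochondria also host steps of haem synthesis, and they are cleared as reticulocytes mature.

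The tables held 68901065 estimated counts for replicate 1 and 51923117 for replicate 2. Levels are given as TPM, a transcript abundance that divides by length and can therefore be compared between genes. All 7 erythroid markers (Hba-a1, Hbb-bs, Gata1, Gfi1b, Klf1, Tal1 and Epor) were at 132.7 TPM or more in each library. Because the line carries a GATA1 fusion, reads of Gata1 may come from it, so Gata1 says little as a marker here. Of 8 markers of T, B, myeloid, granulocytic, endothelial, fibroblast and pluripotent cells, none reached 1 TPM, and 5 (Pecam1, Ly6g, Pou5f1, Itgam and Cd3e) were at 0 in both libraries.

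Nearly every member was present. Of the 77 genes, 76 reached 1 TPM in both libraries, 47 of 48 in the large and 29 of 29 in the small subunit, while 39.0% of all protein-coding genes (8376) did so. The exception was Mrpl35, a large subunit protein with a bacterial counterpart, at 0.70 and 0.50 TPM in replicates 1 and 2 (0.60 ± 0.14, SD, n = 2). Every member had counts in both libraries, and the smallest value was 54 counts, for Mrpl47 in replicate 2. On the opposite strand Mrpl47 shares 616 exonic bases with Ndufb5 (12.1 and 96.7 TPM) and 452 with Actl6a (14.3 and 22.2 TPM). The part of such overlap in its counts was not tested. In a bulk sample, fewer expressing cells and less RNA per cell cannot be told apart.

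The median over the members was 65.1 and 66.6 TPM in replicates 1 and 2. Protein-coding genes that reached 1 TPM in both libraries had medians of 20.3 TPM in each. The 79 genes of cytosolic ribosomal proteins had medians of 324 TPM and 730 TPM, above the members in both libraries but far apart from each other. By mean TPM of both libraries the median member (72.0 TPM) lay above 77.5% of those detected protein-coding genes. Members summed to 1.21% of all TPM in replicate 1 and 1.04% in replicate 2, against 17.9% and 20.8% for the cytosolic ribosomal proteins.

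The members did not share one level. Their mean TPM ran from 0.60 for Mrpl35 to 2451 for Mrpl52, a 4084-fold range; 27 were at 100 TPM or more and 66 at 10 TPM or more. The 90th percentile was 58.5 times the 10th percentile, against 136 times among the cytosolic ribosomal proteins and 65.9 times among detected protein-coding genes. The 4 highest members held 44.1% of the members' summed TPM in replicate 1 and 39.6% in replicate 2.

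Genes named for the small subunit had the higher median in both libraries. The median of small subunit members was 84.1 and 74.4 TPM in replicates 1 and 2, and that of large subunit members 51.9 TPM and 60.2 TPM. The large to small ratio of medians was thus 0.617 in replicate 1 and 0.809 in replicate 2. In protein-coding transcript models alone the medians of mean TPM were 29.0 for the large and 57.4 for the small subunit, against 58.7 and 77.2 over all models, and the ratio was 0.505 against 0.760. The 27 large subunit genes whose number is shared with bacteria had a median of 57.3 TPM, and the 21 with a mitochondrial number had 60.0 TPM. In the small subunit the same groups had medians of 79.2 TPM (16 genes) and 75.3 TPM (13 genes). Neither grouping was tested, because genes are not replicates.

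**Figure D1:**
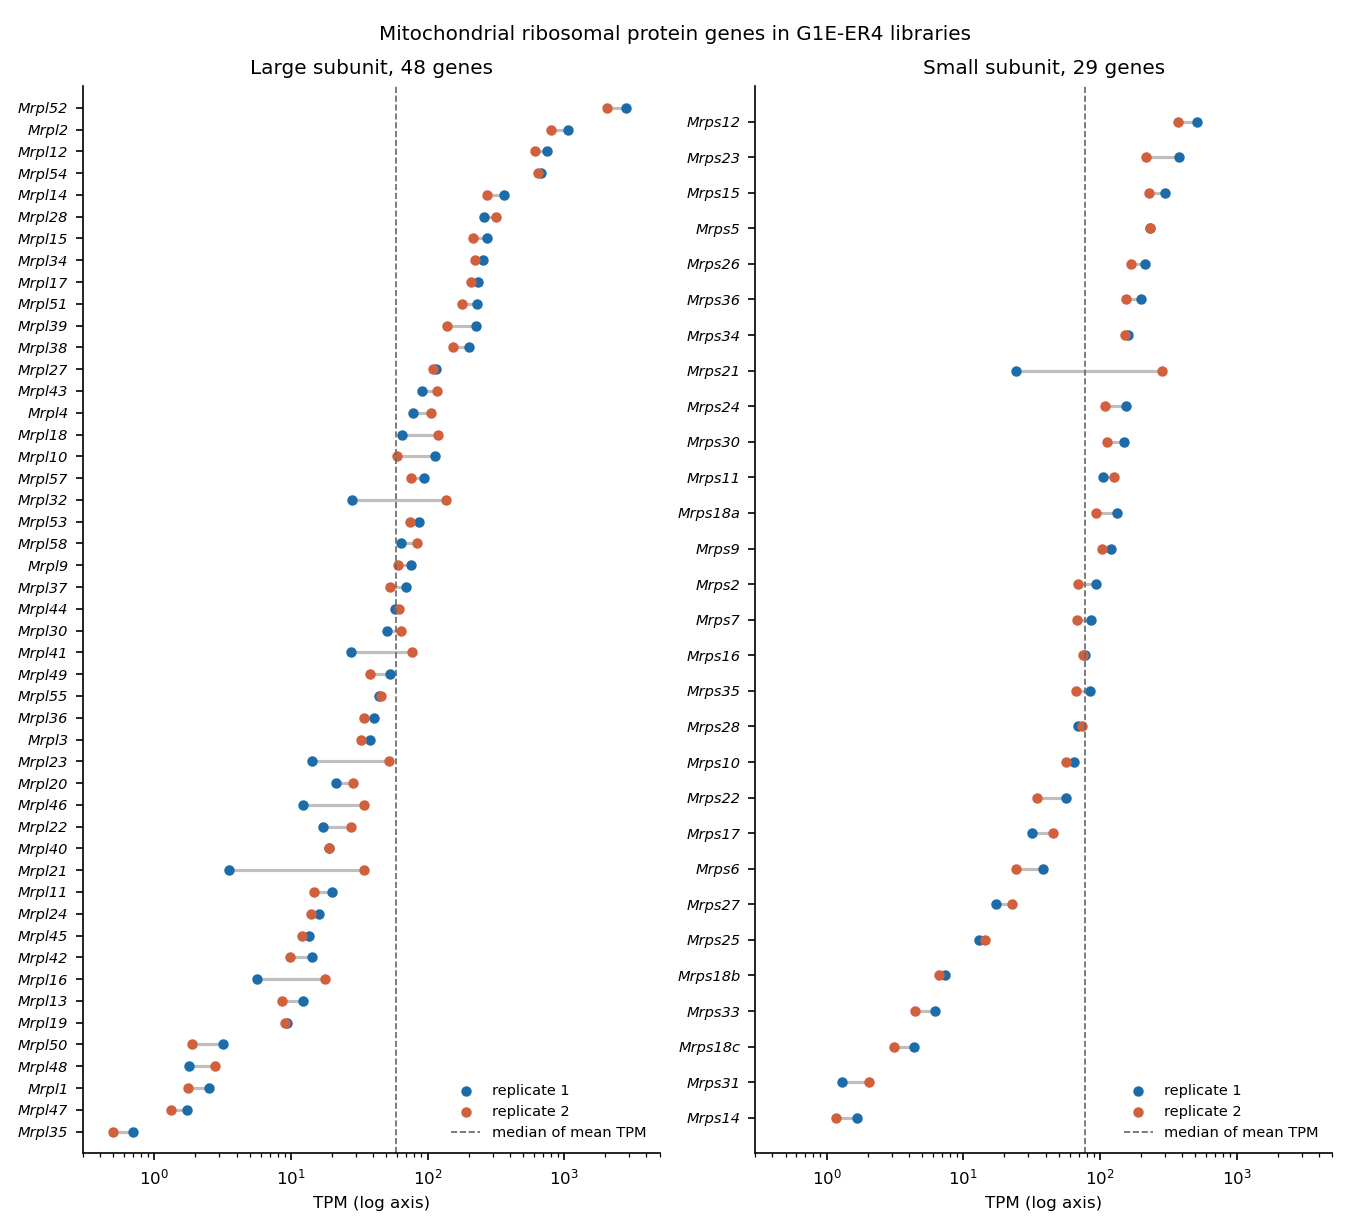
TPM (log axis) of each of the 48 large subunit genes (left) and 29 small subunit genes (right) in replicate 1 (blue) and replicate 2 (orange), ordered by mean, with a dashed line at the median of mean TPM. Mrpl52 leads at 2845 and 2056 TPM, Mrpl35 is lowest at 0.70 and 0.50 TPM, and the longest bars between libraries belong to Mrps21, Mrpl21 and Mrpl32.

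In the large subunit the highest member was Mrpl52, which encodes a protein gained in mitochondria, at 2845 and 2056 TPM in the respective libraries (2451 ± 558, SD, n = 2). It lies on chromosome 14, from 54426909 to 54429756 on the plus strand of GRCm38. Mrpl2, which encodes a core protein next to the peptidyl transferase centre, followed at 1060.0 and 805 TPM (932 ± 180, SD, n = 2). Its range over the libraries and that of Mrpl52 did not overlap.

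Mrpl12 encodes the factor-binding protein of the ribosomal stalk, a protein that has also been found with the mitochondrial RNA polymerase. It was at 749 and 609.6 TPM (679 ± 98.5, SD, n = 2). Other stalk-region genes were far lower: Mrpl10 was at 113 and 60.0 TPM, and Mrpl11 at 20.1 and 14.8 TPM. The levels of Mrpl12, Mrpl10 and Mrpl11 did not overlap in any library.

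Mrpl54, another mitochondrial addition, was at 679 and 643 TPM, within the range of Mrpl12. Mrpl14, whose protein sits at the face that meets the small subunit, was at 362 and 272 TPM. Mrpl28, a protein with a bacterial counterpart, was at 260.2 and 315 TPM, a range that overlapped that of Mrpl14.

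Core proteins of bacterial descent were spread over the scale. Mrpl4 was at 78.0 and 107 TPM, Mrpl3 at 38.1 and 32.6 TPM, and Mrpl16 at 5.67 and 17.7 TPM. With Mrpl2 among them, Mrpl2 was the highest and Mrpl16 the lowest of these core genes in both libraries.

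Members with roles beyond the ribosome's core, or related to other enzymes, lay mostly in the middle. Mrpl44, which has a ribonuclease III fold, was at 58.1 and 61.8 TPM. Mrpl39, related to threonyl-tRNA synthetase, was at 228 and 138 TPM. Mrpl58, formerly Ict1, is a peptidyl-tRNA hydrolase that became part of the large subunit, and was at 63.8 and 83.8 TPM. Mrpl45 encodes a protein near the exit tunnel that faces the inner membrane. It was low, at 13.5 and 12.1 TPM. Of other mitochondrial additions, Mrpl49 was at 53.4 and 38.1 TPM and Mrpl42 at 14.4 and 9.89 TPM.

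The remaining large subunit members filled the scale between these. Mrpl15 (273 and 216 TPM), Mrpl34 (253 and 222 TPM), Mrpl51 (230.3 and 180.1 TPM), Mrpl38 (201 and 154 TPM) and Mrpl27 (116 and 110.3 TPM) were above 100 TPM in both libraries. Mrpl57 (94.2 and 75.8 TPM), Mrpl53 (86.1 and 74.6 TPM), Mrpl9 (75.7 and 60.4 TPM), Mrpl37 (69.6 and 53.5 TPM), Mrpl30 (50.4 and 64.3 TPM) and Mrpl55 (44.2 and 45.5 TPM) were near the median, and Mrpl18 lay on either side of 100 TPM (65.2 and 119 TPM). Lower were Mrpl20 (21.4 and 28.4 TPM), Mrpl22 (17.3 and 27.4 TPM), Mrpl40 (19.1 TPM in each), Mrpl24 (15.95 and 14.0 TPM), Mrpl13 (12.2 and 8.54 TPM) and Mrpl19 (a mean of 9.20 TPM).

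At the low end of the large subunit stood 5 genes. Mrpl50 was at 3.21 and 1.90 TPM, Mrpl1 at 2.51 and 1.78 TPM, and Mrpl48 at 1.79 and 2.80 TPM. Mrpl47 was at 1.75 and 1.32 TPM, and Mrpl35 was lowest. Mrpl1, Mrpl47 and Mrpl35 have bacterial counterparts, Mrpl47 under another number, whereas Mrpl48 and Mrpl50 are mitochondrial additions. The ranges of Mrpl50, Mrpl1 and Mrpl48 overlapped, and Mrpl35 was below all the others in both libraries.

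In the small subunit Mrps12, whose protein sits at the decoding centre, was highest at 518 and 373 TPM (446 ± 103, SD, n = 2). It lies on chromosome 7 on the minus strand. Mrps23 was at 379 and 219 TPM, and Mrps15 at 298 and 231 TPM. Their ranges overlapped, and that of Mrps23 also reached into the range of Mrps12.

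Mrps5, encoding a small subunit core protein, was the steadiest of the leading members, at 231 and 232 TPM (231 ± 0.46, SD, n = 2). These are gene levels. In protein-coding transcript models Mrps5 was at 16.1 and 14.8 TPM and Mrps15 at 26.8 and 30.5 TPM, whereas Mrps12 and Mrps23 lay wholly in such models. Mrps26 was at 214 and 169.6 TPM, with 24.2 and 13.6 TPM in coding models. Mrps36, whose protein is an adaptor subunit of the alpha-ketoglutarate dehydrogenase complex, was at 199.8 and 155 TPM. Mrps34, a mitochondrial addition, was at 161 and 153 TPM. Mrps7, which encodes a head protein of bacterial descent, was at 86.5 and 68.0 TPM. Mrps22 was at 56.7 and 34.4 TPM, and Mrps27, a protein with pentatricopeptide repeats, at 17.3 and 22.7 TPM.

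Other small subunit members lay closer to the median. Mrps24 (155 and 109.8 TPM) and Mrps9 (119.8 and 104 TPM) were above it in both libraries. Mrps2 (93.6 and 68.8 TPM), Mrps16 (78.3 and 74.8 TPM), Mrps35 (84.1 and 66.6 TPM), Mrps28 (69.6 and 74.4 TPM) and Mrps10 (65.1 and 56.9 TPM) were close to it. Mrps6 (38.2 and 24.2 TPM), Mrps17 (31.8 and 45.5 TPM) and Mrps25 (12.9 and 14.4 TPM) were below it in both.

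Some Mrps symbols do not match the place of the protein. Mrps18a and Mrps30 encode proteins that sit in the large subunit, and they were at 134 and 93.4 TPM and at 149 and 113 TPM. The other members of the Mrps18 family, which fill the small subunit, were much lower. Mrps18b was at 7.35 and 6.62 TPM and Mrps18c at 4.37 and 3.11 TPM, so the family kept 1 order in both libraries.

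The lowest small subunit genes were Mrps33 at 6.21 and 4.40 TPM, Mrps18c, Mrps31 at 1.30 and 2.05 TPM, and Mrps14 at 1.66 and 1.18 TPM. Mrps14 encodes a core protein of the head. The ranges of Mrps31 and Mrps14 overlapped, so their order was not resolved.

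With 2 libraries only part of the order could be read. Of 47 neighbouring pairs in the large subunit 38 had overlapping ranges, and of 28 pairs in the small subunit 18 did.

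Other genes of mitochondrial translation were set beside the members by their mean TPM. Of 6 proteins of the mitochondrial ribosome that carry other names, 5 were matched, and all 5 reached 1 TPM in both libraries. Their median was 101 TPM. Aurkaip1 was at 361 and 263 TPM, Gadd45gip1 at 113 and 89.6 TPM, and Ptcd3 at 2.78 and 4.22 TPM. Dap3, a GTP-binding protein of the small subunit that is also known as a cell death factor, was at 69.2 and 161 TPM.

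The lists of genes that serve the ribosome had lower medians than its parts. Of 23 genes of assembly and ribosomal RNA modification 19 were detected, with a median of 11.9 TPM; Mpv17l2 led with a mean of 182 TPM, then Rbfa with 108 TPM and Malsu1 with 66.5 TPM, while Gtpbp10 was at 0.02 and 0 TPM. Of 15 translation factors 14 were detected, with a median of 10.2 TPM. Oxa1l, the membrane insertase that receives nascent chains, had a mean of 114 TPM and Tsfm, an elongation factor, 74.6 TPM. Tufm, the elongation factor that delivers transfer RNA, was at 55.4 and 104 TPM. The release factor Mtrf1 was lowest with a mean of 0.505 TPM.

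Of 17 mitochondrial aminoacyl-tRNA synthetases 16 were detected, with a median of 14.9 TPM. Vars2 (mean 119.9 TPM), Sars2 (75.2 TPM) and Yars2 (60.9 TPM) led, and Wars2 was lowest at 0.395 TPM. Of 10 genes of mitochondrial transcription and DNA maintenance 8 were detected, with a median of 10.2 TPM. Polg, the DNA polymerase, led with 181 TPM, ahead of the RNA polymerase gene Polrmt with 53.7 TPM and the helicase gene Twnk with 18.6 TPM; Mterf2 was lowest with 0.34 TPM.

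What the ribosome is built on and what it translates come from the mitochondrial genome. The ribosomal RNA mt-Rnr1 was at 90.4 and 59.3 TPM and mt-Rnr2 at 58.1 and 28.5 TPM, in libraries labelled as polyadenylated RNA, so these values are not total ribosomal RNA. Of 13 mitochondrially encoded proteins 11 were detected, with medians of 326 and 138 TPM. The highest were mt-Atp8 at 3171 and 1383 TPM, mt-Cytb at 1626 and 859.7 TPM and mt-Nd1 at 874 and 610.2 TPM, all lower in replicate 2, and the lowest by mean was mt-Co3 at 0.29 and 8.22 TPM. The next by mean, mt-Co2, went the other way, at 10.5 and 0 TPM. Both had few counts, 11 and 235.27 for mt-Co3 and 331.68 and 0.12 for mt-Co2, beside 37452.7 and 13480.1 for mt-Co1. Sequence that mitochondrially encoded genes share with other genes was not examined. The part of such sequence in these levels was therefore not tested. The members' own median was 65.1 and 66.6 TPM.

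**Figure D2:**
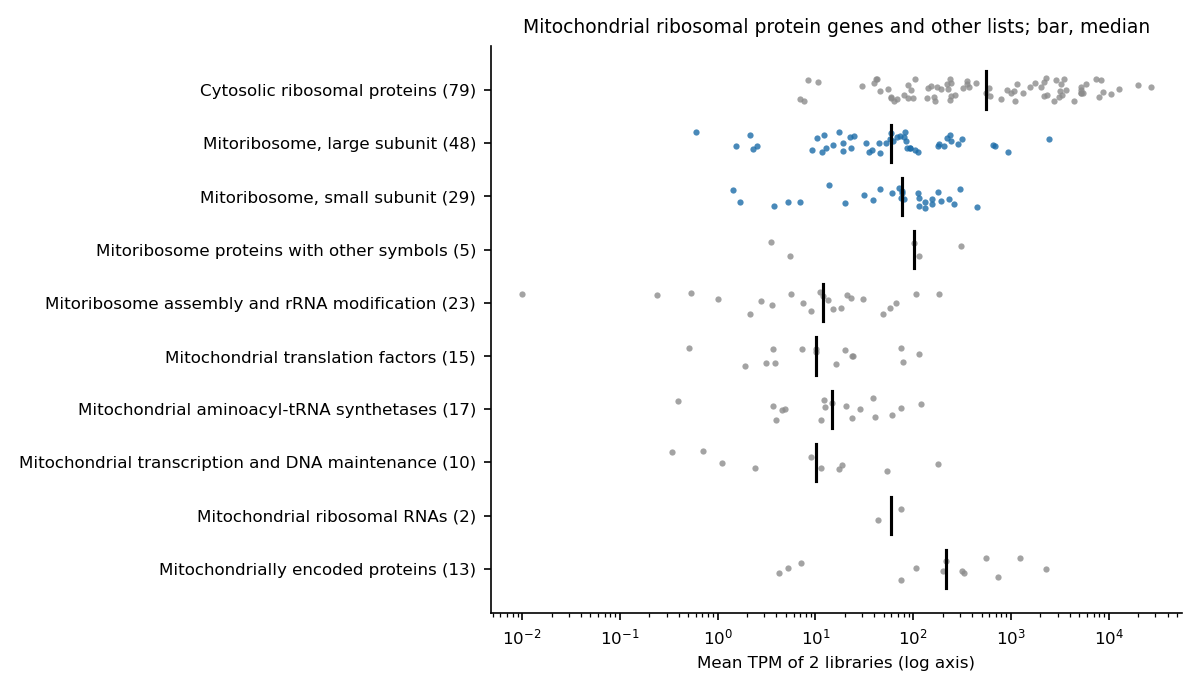
Mean TPM of 2 libraries (log axis) for each gene of the large and small subunit (blue) and of the other lists (grey), with a black bar at each median and the number of genes in brackets. The medians of the subunits, 58.7 and 77.2 TPM, lie above those of assembly factors, translation factors and synthetases (10.2 to 14.9 TPM) and below that of cytosolic ribosomal proteins (556 TPM).

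Most members agreed between the libraries, and those that did not were higher in replicate 2. Ratios were taken from estimated counts scaled with TMM factors, over 10863 genes whose mean count was 10 or more; with 1 library a side there is no test, and a 2-fold difference was used as the limit. By this limit 7 of 77 members (9.09%) were higher in replicate 2, beside 7.73% of all those genes, and 0 were higher in replicate 1, beside 2.00% of all genes. The members' shares are near the background. The median log2 ratio of replicate 2 to replicate 1 was -0.10 over the members (SD 0.80 over genes), with 45 below 0 and 32 above, and -0.01 over all genes with a finite ratio (SD 0.68). Cytosolic ribosomal proteins had a median of 0.23 (SD 1.02).

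Mrps21, whose bacterial counterpart is one of the last proteins to join the small subunit, differed most. It had 381 counts and 24.2 TPM in replicate 1 and 3425 counts and 285 TPM in replicate 2, a log2 ratio of 3.68 on the scaled counts. Its place among the members moved with it: in replicate 1 it was below the small subunit median and in replicate 2 only Mrps12 was higher in that subunit.

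Mrpl21, a large subunit protein of bacterial descent, had 135 and 845 counts and 3.51 and 34.5 TPM (log2 ratio 3.16). Mrpl32, which is activated by the m-AAA protease of the inner membrane before it joins the ribosome, was at 27.8 and 136 TPM (log2 ratio 2.41). Both were higher in replicate 2. Posterior mean counts gave the same call, but for Mrpl32 they equal the expected counts (1020 and 3800), so they are no separate check.

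The other 4 differed less. Mrpl23, which lines the exit tunnel, was at 14.2 and 52.0 TPM, and Mrpl16 at 5.67 and 17.7 TPM. Mrpl41 was at 27.5 and 77.4 TPM and Mrpl46 at 12.2 and 34.4 TPM. Their log2 ratios lay between 1.60 and 1.81. The largest difference in the other direction was a log2 ratio of -0.66 for Mrpl50.

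**Figure D3:**
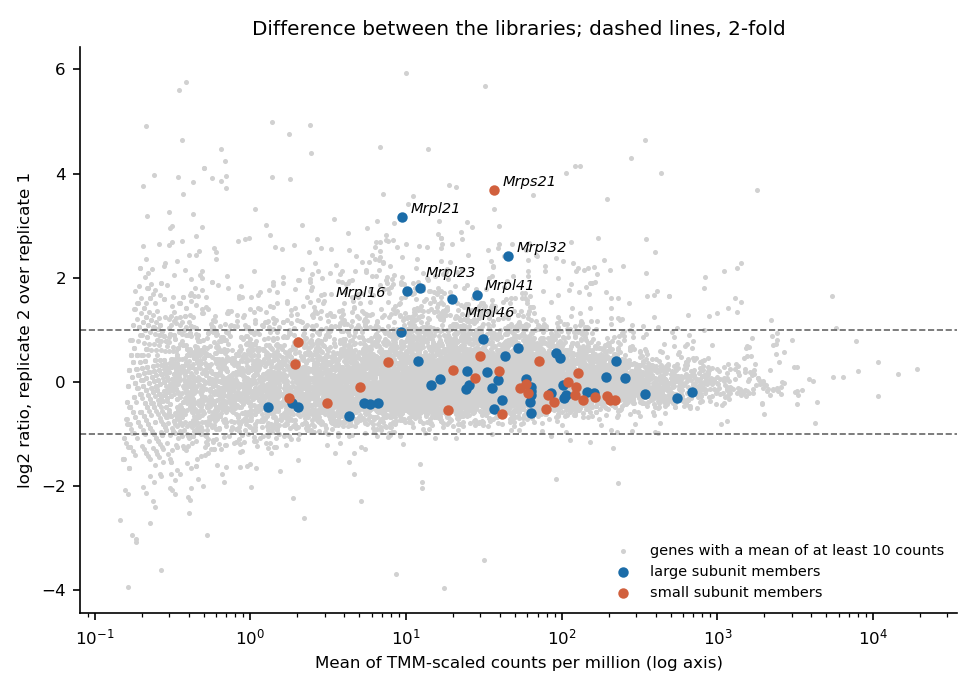
The log2 ratio of replicate 2 to replicate 1 against the mean of TMM-scaled CPM (log axis) for large subunit members (blue), small subunit members (orange) and all genes whose mean count was 10 or more (grey), with dashed lines at 2-fold. The 7 named members lie above the upper line, none lies below the lower one, and the grey points spread above the line as well (7.73% of genes).

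For some members the gene level was not mainly the level of a protein-coding transcript. The deposited transcript tables split each gene over its annotated models, and the model with the largest share was called leading. It was not protein-coding in 20 of 77 members (26.0%) in replicate 1 and in 19 (24.7%) in replicate 2, beside 20.2% of detected protein-coding genes in each library. The same held in both libraries for 16 members (20.8%), 11 of the large and 5 of the small subunit, beside 17.1% of detected protein-coding genes. At the other end 47 members (61.0%) had at least 90% of their TPM in coding models in both libraries, Mrpl52, Mrpl12 and Mrps12 among them, beside 61.7% of detected protein-coding genes. These shares are near those over all detected genes.

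Mrpl2 shows the size of this. Of its 1060.0 and 805 TPM, coding models held 242 and 196 TPM, and model Mrpl2-205, annotated as a processed transcript of 434 bases, held 77.1% and 75.7%. In estimated counts the same models were closer, with 12531 and 7502 counts for the coding model Mrpl2-201 of 1031 bases and 13549 and 7859 counts for Mrpl2-205. The step from counts to TPM divides by length, so reads given to a short model weigh more.

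Models with a retained intron led in other members. Mrpl39 had 98.1% and 98.2% of its TPM in such a model, and only 4.30 and 2.55 TPM in its coding model. Mrps5 had 80.0% and 67.7% in model Mrps5-202 of 451 bases, and 16.1 and 14.8 TPM in the coding model of 4481 bases, although that coding model held 4189 and 2893 of the gene's 8547 and 6700.3 counts. Mrpl51 (90.5% and 91.7%), Mrps26 (88.7% and 92.0%), Mrpl38 (63.6% and 52.2%) and Mrpl58 (46.1% and 54.6%) also had a leading model with a retained intron. For Mrps25 it held 96.3% and 94.9%, which left 0.48 and 0.67 TPM in coding models.

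Processed transcripts without a reading frame led in Mrps15 (88.8% and 84.5%), Mrpl14 (78.5% and 72.1%), Mrpl47 (73.9% and 76.1%) and Mrpl23 (50.5% and 85.4%). Models annotated as targets of nonsense-mediated decay, the pathway that degrades transcripts with an early stop codon, led in Mrps11 (89.0% and 77.8%) and Mrpl13 (68.6% and 68.8%). Mrpl32 had a single matched model, of that class. Its coding TPM was therefore 0 in both libraries, and it entered the medians and the sum over coding models as 0.

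The leading model differed between the libraries in 13 of 77 members (16.9%), beside 12.6% of detected protein-coding genes. In Mrpl21 the coding model Mrpl21-201 held 93.3% in replicate 1, and a retained-intron model, Mrpl21-203, held 90.04% in replicate 2. Its coding models were at 3.31 and 2.93 TPM, so the difference in the gene's level between libraries lay in the retained-intron model. In Mrpl23, whose leading model was the same in both libraries, coding TPM was likewise close (5.74 and 6.11), and the difference lay in the processed transcript Mrpl23-202 (7.19 and 44.4 TPM).

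Mrpl44 went the other way. A retained-intron model held 81.1% in replicate 1 and the coding model 76.5% in replicate 2, so that coding TPM was 11.0 and 47.3 while gene TPM was 58.1 and 61.8. Mrps18a likewise changed from a leading retained-intron model to a coding one (coding TPM 43.7 and 89.9), as did Mrpl22 from a processed transcript (6.05 and 16.6) and Mrps14 from a decay target (0.50 and 1.17). Mrpl18 and Mrpl3 changed from a coding to a non-coding model, with 30.8 and 26.8 and with 18.3 and 9.49 coding TPM. In Mrpl10, Mrps10, Mrpl30, Mrpl55 and Mrpl48 1 coding model replaced another, and in Mrpl15 1 non-coding model replaced another.

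With protein-coding models alone, 8 of 76 members with enough counts were 2-fold higher in replicate 2 (beside 8.52% of 9698 genes) and 0 in replicate 1 (2.75%). Of the 7 named above, Mrps21, Mrpl16, Mrpl41 and Mrpl46 were among them. Mrpl21 and Mrpl23 were not, Mrpl32 has no coding model and gave no ratio, and Mrpl22, Mrpl44, Mrps11 and Mrps18a came in.

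**Figure D4:**
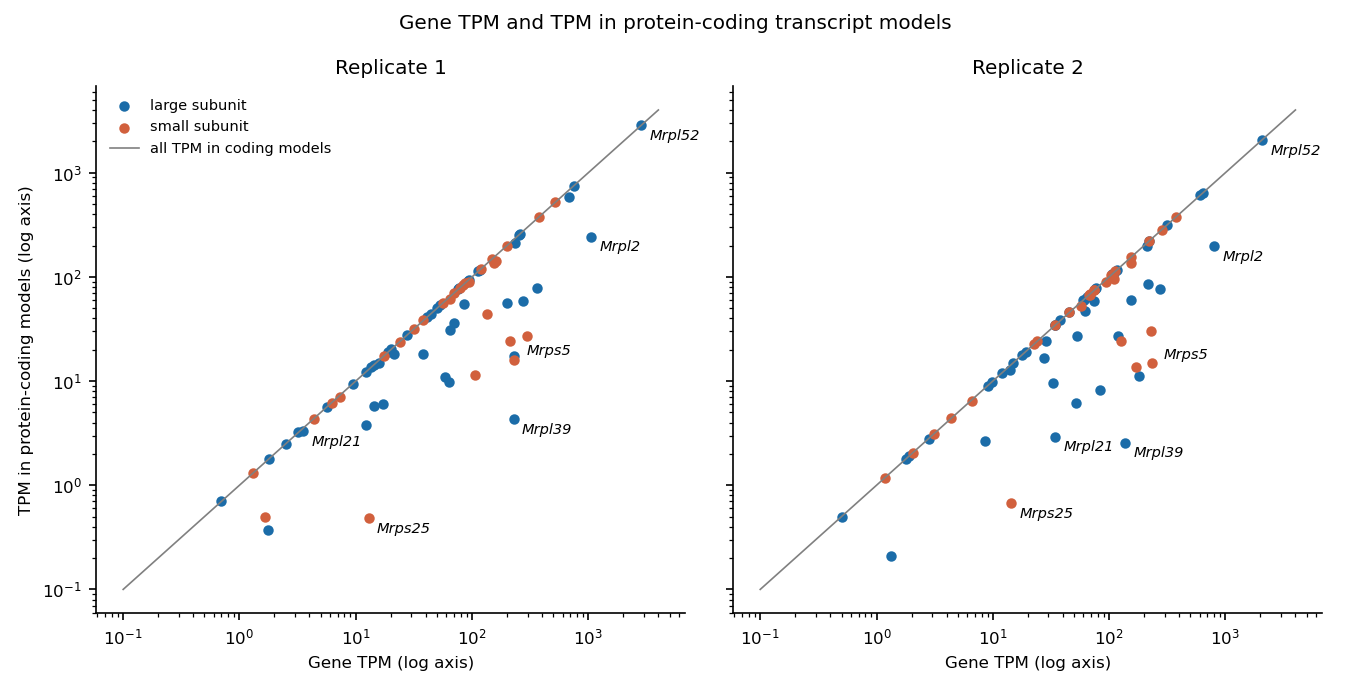
TPM in protein-coding transcript models against gene TPM (both log axes) for replicate 1 (left) and replicate 2 (right), large subunit in blue and small subunit in orange, with the line on which all TPM is in coding models; Mrpl32, with no coding model, is not drawn. Most points lie on the line, while Mrpl2, Mrps5, Mrpl39 and Mrps25 lie below it in both libraries and Mrpl21 only in replicate 2.

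The members are scattered over the genome and often share a start region with another gene. They lie on 17 chromosomes, with at most 11 on one, chromosome 11. A protein-coding neighbour on the other strand, starting within 1000 bases so that both genes point away from each other or overlap at their starts, was found for 33 members (42.9%), 24 of 48 in the large and 9 of 29 in the small subunit. Of detected protein-coding genes 20.2% had such a neighbour. No test was made, since genes are not independent draws.

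Some partners work in the same organelle. Mrps11 and Mrpl46, of different subunits, share a start region on chromosome 7; Mrps11 was at 105 and 126 TPM and Mrpl46 at 12.2 and 34.4 TPM. Mrps12 starts 172 bases from Sars2, the mitochondrial seryl-tRNA synthetase, which was at 65.6 and 84.8 TPM. Mrpl43, at 91.7 and 117 TPM, overlaps the start of the helicase gene Twnk, at 20.7 and 16.4 TPM, and Mrpl36, at 40.8 and 34.2 TPM, overlaps that of Ndufs6, a complex I subunit at 121 and 144 TPM.

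Neighbours of this kind could differ widely in level. Mrpl49 lies 59 bases from Fau, which encodes a cytosolic ribosomal protein fused to a ubiquitin-like one; Fau was at 3998 and 4141 TPM and Mrpl49 at 53.4 and 38.1 TPM. Mrpl32 lies 75 bases from Psma2, a proteasome subunit at 10.9 and 6.39 TPM; the former was higher in replicate 2 and the latter in replicate 1.

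Promoter sequences from RefSeq (build GRCm38.p6) covered 68 of the 77 members in 74 windows, each from 250 bases before to 50 bases after a start. They were searched on both strands for exact matches to the core motif of 3 factors known at genes of mitochondrial and ribosomal function: GCGCATGCG for NRF1, CCGGAAGT for the ETS family and AAGATGGCG for YY1. The YY1 motif ends on the letters that open the NRF1 motif, so matches of these could overlap; Mrps27 alone held matches to more than 1 of the motifs, ETS and YY1. NRF1's was in 7 windows (9.46%), against 4.43% of 8528 windows of detected protein-coding genes and 1.75% of all 32851. The ETS motif was in 11 (14.9%, against 10.2% and 3.89%), and YY1's in 8 (10.8%, against 3.80% and 1.40%). By subunit, NRF1's motif was in 6 of 47 large subunit windows (12.8%) and in 1 of 27 small subunit windows (3.70%). YY1's was in 4 of the large (8.51%) and 4 of the small (14.8%), and the ETS motif in 7 (14.9%) and 4 (14.8%). These counts are small, and the 47 large subunit windows cover 42 genes and the 27 small subunit windows 26 genes. Whether the subunits differ was not tested. A match is a description of these letters and not evidence of binding.

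The stretches below are shown because each carries a motif close before the start; each holds the 100 bases before it, 5′ to 3′ on the gene's strand, with the motif in capitals, and at most 18 of the bases are exonic in the annotation. The first group has the NRF1 motif. Mrpl17 is on the minus strand (chr7:105811088-105811187), Mrpl22 on the plus strand (chr11:58171564-58171663) and Mrpl9 on the plus strand (chr3:94443236-94443335), where matches on both strands overlap.
Mrpl17: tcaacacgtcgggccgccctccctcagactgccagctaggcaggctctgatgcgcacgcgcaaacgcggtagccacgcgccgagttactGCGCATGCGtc
Mrpl22: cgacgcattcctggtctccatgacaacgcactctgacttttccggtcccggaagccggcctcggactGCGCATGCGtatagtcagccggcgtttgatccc
Mrpl9: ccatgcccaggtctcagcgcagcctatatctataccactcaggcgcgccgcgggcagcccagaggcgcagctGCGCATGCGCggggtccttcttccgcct

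The second group has the ETS motif. Mrpl43 is on the minus strand (chr19:45006443-45006542) and Mrps22 on the minus strand (chr9:98601680-98601779).
Mrpl43: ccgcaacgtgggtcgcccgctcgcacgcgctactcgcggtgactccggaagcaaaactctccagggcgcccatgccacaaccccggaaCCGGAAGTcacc
Mrps22: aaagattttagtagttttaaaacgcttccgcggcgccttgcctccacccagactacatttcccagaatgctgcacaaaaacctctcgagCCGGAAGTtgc

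Genes with the same motif did not share a level. Members with the NRF1 motif ran from Mrps18b, with a mean of 6.99 TPM, to Mrpl17, at 235 and 209.8 TPM. Those with the ETS motif ran from Mrpl48, at 1.79 and 2.80 TPM, to Mrpl52, at 2845 and 2056 TPM. Mrpl35, the lowest member, has the YY1 motif.

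Some levels rest on reads that other genes could also have given. Whether the counting used strand is not known from these sources, and 28 members have exons that overlap a gene on the opposite strand. Mrps25 shares 4590 exonic bases with Nr2c2 (7.26 and 6.38 TPM), Mrpl19 1962 with Gcfc2 (6.77 and 5.01 TPM) and Mrps34 1309 with Mapk8ip3 (24.7 and 31.4 TPM). At least 10% of the 31-base words of 29 members also occur in another gene's transcripts, with a median of 6.48% over all members, and Mrpl53 was highest with 84.4%. The counts of 28 and 29 members were not made over all genes, so whether they are unusual is not known. Of named pseudogenes, Mrpl23-ps1 was at 2.67 and 10.2 TPM and was higher in replicate 2, as Mrpl23 was; Mrpl48-ps was at 0.76 and 0.54 TPM. The part of shared sequence in these levels was not tested.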

How the data were processed

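Each library has a gene table and a transcript table. Expected counts and posterior mean counts are the authors' estimated counts, per the file headers. TPM and FPKM were deposited by the authors, and the isoform share is a percent of gene TPM, per the file headers. The build is mm10 with GENCODE M4, per the labels and readme files; no aligner, quantifier or strand setting is given in the sources used here.

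Symbols, classes, coordinates and transcript names came from GENCODE M21 (same build), by identifier without version, and 42462 of 43346 Ensembl genes matched. Classes of transcript models therefore refer to M21. Expected counts were rounded to whole numbers and scaled with TMM (edgeR 4.0.16 in R 4.3.3), with DESeq2 1.42.0 size factors as an alternative. The TMM scaling was tried on counts simulated without biological spread between replicates. Such counts cannot show how often a 2-fold difference arises between these libraries. No test between the libraries was made. With an intercept only, edgeR gave a common biological coefficient of variation of 0.2995. Tables and figures used Python 3.11.15, pandas 2.3.3, numpy 2.4.6 and matplotlib 3.10.9.

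Members and gene lists were chosen with earlier results of these data known. Named genes were the 5 highest and 5 lowest of each subunit, members below 1 TPM, members 2-fold apart between libraries, members whose leading model differed or was not protein-coding, members picked by role, and the 3 highest and the lowest of each list. Examples outside this rule (remaining members, gene neighbours, overlapping genes, pseudogenes and printed promoters) were chosen after their values were seen. Alternatives covered the unit, scaling, count filter, fold limit, coding models and single libraries.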

Additional observations from a re-analysis of the deposited data

How the results depend on the processing

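Of 64 recomputed values 51 stayed near the reported one and 13 moved, by limits that differed between results. Counts were called near up to 1.5-fold. Level medians, their ratio and sums were called near within the SD of the 2 libraries. The median log2 ratio was called near within 0.2995, the common biological coefficient of variation. That is a spread of single genes and a wide limit for a median. By it, -0.203 with library totals and -0.206 with TPM counted as near -0.096. A summed TPM from 1 library always lies within that SD of the mean, so it could not move. Only the ratio of subunit medians and the median log2 ratio could change direction, and neither did. The large subunit median (58.7 TPM) became 51.0 as FPKM, 40.1 as CPM and 29.0 in protein-coding models. The small subunit median (77.2 TPM) became 67.2, 58.6 and 57.4. FPKM and CPM are other units, so these medians are among the 13 by their unit alone, and the ratio of subunit medians was 0.759 as FPKM. The ratio of subunit medians fell from 0.760 to 0.505 in coding models, a setting chosen after seeing the data, where the members' summed TPM was 8351 and not 11247. From single libraries the large subunit median ran from 51.9 to 60.2, the small subunit median from 74.4 to 84.1 and the ratio from 0.617 to 0.809. With a 1.5-fold limit 11 members were higher in replicate 2 (1734 of 10863 genes were) and 3, Mrpl39, Mrpl50 and Mrps22, in replicate 1 (804 of all genes). The same 7 members passed 2-fold under library totals, DESeq2 size factors, TPM, posterior mean counts, a minimum of 100 counts and no filter. Some of these settings could hardly change a call. Posterior mean counts equal expected counts for members such as Mrps21 and Mrpl32, and the count filters act only on which genes enter and on the scaling. No paired analysis was possible because the design has 1 group. The lowest count of a member in a library was 54, and 2 libraries of one biosample give no estimate of variation between cultures.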
